A study of Mus musculus with 56 samples.

Results

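The genes Lgr5, Olfm4, Ascl2, Smoc2, Aqp4, Sox9, Axin2, Rgmb, Sfrp5 and Cdca7 were examined as markers of crypt stem cells and of Wnt signalling, 10 of the 18194 genes named on the array. They were taken by name, and each was represented in each tissue by the probe set annotated to that gene alone with the highest mean over the arrays of the tissue. Expression was measured on 56 Affymetrix arrays of whole colon and whole jejunum from BALB/C mice, and no mouse gave more than 1 array according to the study's design text. Tweak knockout (KO) and wild type (WT) mice had received 3 Gy of ionizing radiation, Tweak being the TNF-family ligand that Tnfsf12 encodes. KO colon was represented by 5 arrays at each of 0, 6 and 24 h, and KO jejunum by 5, 4 and 5 arrays. WT colon had 5, 4 and 4 arrays at 0, 6 and 24 h, and WT jejunum had 5, 5 and 4. The labels give the dose for the 0 h groups too and do not say whether those mice were irradiated, how the knockout was made or whether KO and WT mice were littermates. Values are log2 signals as group mean ± SD, differences of group means are log2 values ± SE. Differences are named called where limma's p, after Benjamini-Hochberg adjustment over 13645 genes per tissue, was under 0.05.

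Stem cells at the base of intestinal crypts renew the epithelium under Wnt signals, which are strengthened by R-spondins acting through Lgr receptors. The signal stabilises beta-catenin, which joins TCF factors and switches on genes such as Axin2, Ascl2, Sox9 and Lgr5. Crypt stem and progenitor cells divide often and are among the radiosensitive cells of the gut, and in mice Olfm4 marks such cells in the small intestine but not in the colon.

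The probe set of Tnfsf12, which is also annotated to the read-through gene Tnfsfm13, had group means of 2.49 to 2.59 in KO and 3.07 to 4.26 in WT, and KO and WT arrays of the same tissue and time did not overlap. All WT arrays came from 1 batch, read from the leading field of the array file names, while KO arrays came from another, apart from the replicate 1 arrays of KO colon and KO jejunum at 0 h. For KO colon 24 h replicate 3 the batch was assumed from a column whose name fits no sample. Differences between KO and WT therefore lie almost wholly between batches, while the WT time comparisons lie within 1 batch. Markers of colonocytes averaged 12.71 to 13.40 in all colon arrays. In jejunum, markers of the proximal small intestine averaged under 6 in 11 arrays, namely KO 0 h replicates 1 and 3, all 4 KO 6 h arrays, KO 24 h replicates 1, 2 and 3, WT 6 h replicate 4 and WT 24 h replicate 2. Markers of the distal small intestine reached 10.35 in KO 0 h replicate 3 and 10.78 in WT 24 h replicate 2, against 3.81 to 6.65 in the other 26 jejunum arrays. Among colon arrays, markers of small intestinal enterocytes averaged 12.01 in WT 0 h replicate 2 and 9.50 in WT 0 h replicate 3, against 6.50 to 8.14 elsewhere. Because whole tissue was measured, fewer cells of a type and less RNA per cell cannot be told apart in any value below.

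Some members stood near the array floor, which was 2.28 in colon and 2.32 in jejunum and was taken as reached where a gene's mean over a tissue lay within 1 of it. In colon these were Lgr5 (mean 2.86), Olfm4 (2.71) and Sfrp5 (3.18), and in jejunum they were Lgr5 (2.99) and Sfrp5 (2.81). Above the floor in colon were Ascl2 (4.04), Smoc2 (6.02), Aqp4 (10.65), Sox9 (7.54), Axin2 (6.69), Rgmb (7.62) and Cdca7 (6.84). Above it in jejunum were Olfm4 (11.16), Ascl2 (3.99), Smoc2 (6.73), Aqp4 (4.51), Sox9 (5.39), Axin2 (6.44), Rgmb (6.19) and Cdca7 (6.87). The tissues were normalized separately and signals of different probe sets are not on a common scale, so these means order neither genes nor tissues. Ascl2 and Rgmb were each represented by a different probe set in colon and in jejunum. All 10 members passed the filter on low values in both tissues. Olfm4 in colon passed with WT 0 h replicates 2 and 3 at 9.96 and 5.10, while its means in the other colon groups were 2.28 to 2.63.

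Promoters of 6 members were listed, with 8 windows of 300 bases from 250 before to 50 after an annotated start (RefSeq, GRCm38.p6). Shown 5′ to 3′ are 3 of them, chosen because they belong to the members above the floor that have a listed promoter and a called fall. Capitals mark the match of the RBPJ type in Olfm4, CCAAT boxes in Ascl2 and a match of the E2F type in Cdca7.
Olfm4, chr14:80000052-80000351, plus strand: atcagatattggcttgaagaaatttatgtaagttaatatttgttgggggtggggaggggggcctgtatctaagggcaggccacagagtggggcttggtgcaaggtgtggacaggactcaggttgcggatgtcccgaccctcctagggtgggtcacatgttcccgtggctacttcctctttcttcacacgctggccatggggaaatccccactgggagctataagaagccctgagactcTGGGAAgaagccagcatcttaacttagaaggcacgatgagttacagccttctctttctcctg
Ascl2, chr7:142969215-142969514, minus strand: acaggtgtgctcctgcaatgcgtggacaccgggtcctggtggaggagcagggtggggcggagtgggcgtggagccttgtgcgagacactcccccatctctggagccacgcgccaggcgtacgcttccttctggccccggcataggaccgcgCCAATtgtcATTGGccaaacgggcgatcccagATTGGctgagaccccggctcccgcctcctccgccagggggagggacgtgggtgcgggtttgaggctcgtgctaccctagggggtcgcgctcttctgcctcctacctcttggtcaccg
Cdca7, chr2:72475969-72476268, plus strand: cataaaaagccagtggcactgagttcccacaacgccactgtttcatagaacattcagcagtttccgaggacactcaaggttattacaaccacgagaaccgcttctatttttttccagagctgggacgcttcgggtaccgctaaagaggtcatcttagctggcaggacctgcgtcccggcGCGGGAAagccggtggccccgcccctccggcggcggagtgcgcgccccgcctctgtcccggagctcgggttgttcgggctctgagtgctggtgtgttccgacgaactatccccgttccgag
Motifs were searched on both strands as exact letters. The RBPJ type, TGGGAA, lay 12 bases before the Olfm4 start, and on the opposite strand 227 before that of Cdca7, where it is not in capitals. It was in 2 of the 8 windows and in 25.6% of 32851 listed promoters. CCAAT lay 99, 90 and 67 bases before the Ascl2 start, the last 2 on the opposite strand, and it was in 6 of the 8 windows and in 37.4% of promoters. The E2F type, GCGGGAA, lay 71 bases before the Cdca7 start and 41 before that of Sfrp5, and 4.6% of promoters hold it. The TCF type, CTTTGA or CTTTGT, was in 1 of the 8 windows, upstream of Rgmb, and in 31.2% of promoters. These are matches of letters only, and binding was not measured. RBPJ is the DNA-binding factor of the Notch pathway, and E2F factors drive genes of DNA replication.

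Olfm4, a secreted glycoprotein of small intestinal crypt base cells (chromosome 14, 80000302 to 80023141), had the largest fall of the 10 members in jejunum, in both genotypes at 24 h. In KO jejunum the arrays read 12.32, 13.09, 13.25, 12.48 and 12.47 at 0 h, 11.09, 11.52, 11.99 and 11.41 at 6 h, and 9.93, 10.02, 10.10, 10.14 and 10.25 at 24 h. The 3 KO times did not overlap, each lying wholly below the time before it. In WT jejunum they read 11.59, 12.63, 12.63, 12.44 and 11.31 at 0 h, 10.32, 10.19, 12, 10.72 and 10.15 at 6 h, and 9.90, 8.05, 10.34 and 10.05 at 24 h. WT 6 h overlapped both other times, while WT 24 h lay wholly below WT 0 h. Olfm4 fell by 2.64 ± 0.37 in KO jejunum at 24 h against 0 h (6.22-fold, limma adjusted p = 0.000408) and by 2.54 ± 0.392 in WT jejunum (5.80-fold, adjusted p = 0.000944). At 6 h against 0 h the differences were -1.22 ± 0.392 in KO (adjusted p = 0.176) and -1.44 ± 0.37 in WT (adjusted p = 0.101), and neither was called. The WT 6 h difference was called without WT 6 h replicate 3 (-1.77, adjusted p = 0.0103) or without WT 0 h replicate 5 (-1.65, adjusted p = 0.0468), within a range of 0.00336 to 0.435 over the settings tried.

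**Figure D1:**
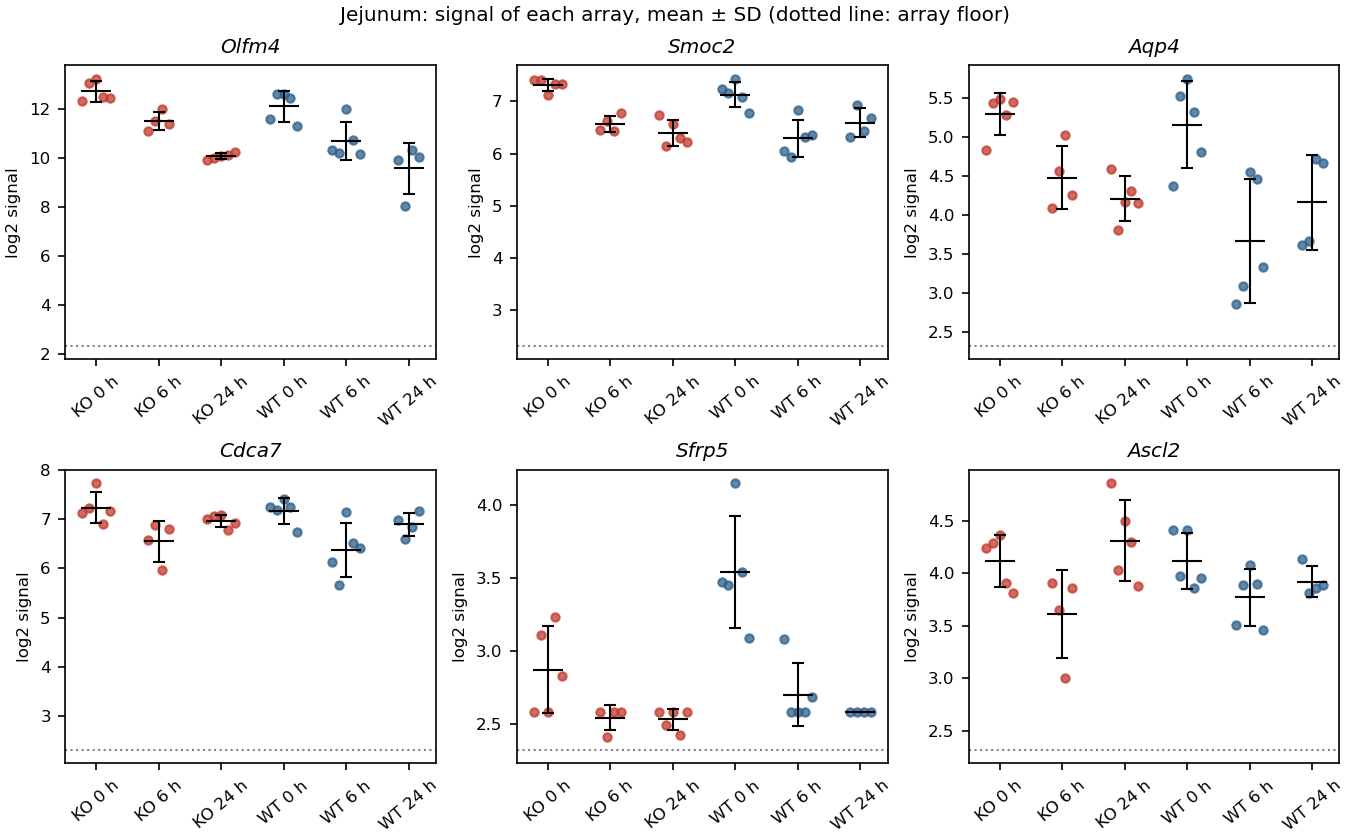
Log2 signal of 6 members in each jejunum array (points), with group mean and SD (bars), for KO and then WT at 0, 6 and 24 h; the dotted line is the array floor. Olfm4 lies between 9.93 and 10.25 in KO at 24 h against 12.32 to 13.25 at 0 h, and between 8.05 and 10.34 in WT at 24 h against 11.31 to 12.63 at 0 h.

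The lowest Olfm4 value of the jejunum, 8.05 in WT 24 h replicate 2, came from the array with distal markers at 10.78, and the highest, 13.25 in KO 0 h replicate 3, came from the array with distal markers at 10.35. Without the 11 arrays low in proximal markers, the WT 24 h difference was -2.02 (adjusted p = 0.0274) and stayed called. The KO 24 h difference was then -2.49 from 2 arrays against 3 (adjusted p = 0.0905) and was not called. With gut position as a term the differences were -2.66 in KO (adjusted p = 0.000245) and -2.33 in WT (adjusted p = 0.00328). Whether position had a part in the size of these falls was not tested beyond these settings. Markers of Paneth cells, which sit next to the stem cells and make antimicrobial proteins, averaged 8.87 to 12.2, 11.74 to 12.34 and 9.6 to 12.12 in KO jejunum at 0, 6 and 24 h, and 8.75 to 11.94, 8.41 to 11.7 and 10.31 to 11.4 in WT jejunum. The median difference of the 5 measured Paneth genes from 0 h was +1.8 and +0.77 in KO at 6 and 24 h and +0.39 and +0.61 in WT, and none of the 5 was called. Their part in the members' values was not tested.

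**Figure D2:**
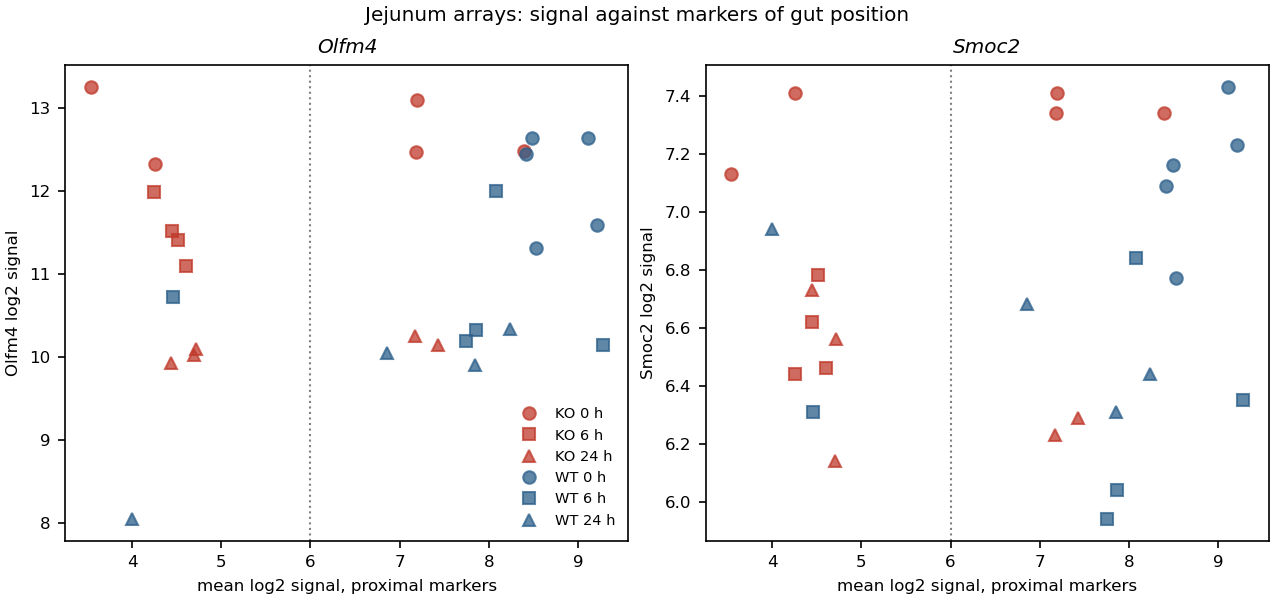
Log2 signal of Olfm4 and Smoc2 in each jejunum array against the mean log2 signal of the proximal small intestine markers, for KO (red) and WT (blue) at 0, 6 and 24 h; the dotted line stands at 6. Olfm4 at 24 h lies below every 0 h array of its genotype on both sides of the line, and all 4 KO 6 h arrays stand left of it.

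Smoc2, a secreted calcium-binding matrix protein of the stem cell zone (chromosome 17, 14279490 to 14404790), fell in 3 of the 4 jejunum comparisons with 0 h. In KO jejunum it read 7.41, 7.41, 7.13, 7.34 and 7.34 at 0 h, 6.46, 6.62, 6.44 and 6.78 at 6 h, and 6.73, 6.14, 6.56, 6.29 and 6.23 at 24 h. All 9 KO arrays at 6 and 24 h lay below all 5 KO 0 h arrays. WT jejunum read 7.23, 7.16, 7.43, 7.09 and 6.77 at 0 h, 6.04, 5.94, 6.84, 6.31 and 6.35 at 6 h, and 6.31, 6.94, 6.44 and 6.68 at 24 h. The WT 6 h and 24 h groups each overlapped WT 0 h by 1 array on either side. Smoc2 fell by 0.75 ± 0.166 in KO at 6 h (adjusted p = 0.0313), by 0.93 ± 0.156 in KO at 24 h (adjusted p = 0.00294) and by 0.84 ± 0.156 in WT at 6 h (adjusted p = 0.00806). In WT at 24 h the difference was -0.54 ± 0.166 and was not called (adjusted p = 0.0997). The KO 6 h call was lost without any of KO 6 h replicates 1 (-0.71), 3 (-0.77) and 4 (-0.71) or KO 0 h replicates 2 (-0.73), 4 (-0.75) and 5 (-0.75), with adjusted p up to 0.117. All 4 KO 6 h arrays were low in proximal markers, and the KO 24 h difference without such arrays was -1.10 (adjusted p = 0.0968).

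Aqp4, a water channel of small intestinal crypt cells, was called in WT jejunum at 6 h, where it fell by 1.5 ± 0.316 (2.83-fold, adjusted p = 0.0247). WT arrays read 4.37, 5.53, 5.75, 5.32 and 4.81 at 0 h, 2.85, 3.09, 4.55, 4.46 and 3.33 at 6 h, and 3.61, 3.66, 4.72 and 4.66 at 24 h. The WT 6 h arrays were spread from near the floor to above the lowest 0 h array. KO arrays read 4.83, 5.44, 5.49, 5.28 and 5.45 at 0 h, 4.09, 4.56, 5.02 and 4.26 at 6 h, and 4.59, 3.81, 4.17, 4.31 and 4.15 at 24 h. KO 24 h lay wholly below KO 0 h, with a difference of -1.09 ± 0.316 that was not called (adjusted p = 0.121). It was called with the mean of probe sets (-0.74, adjusted p = 0.0375), array weights (-1.17, adjusted p = 0.00139), only the groups compared (-1.09, adjusted p = 0.0251) and a replicate block (-1.09, adjusted p = 0.0352), within 0.00139 to 0.501 over the settings tried. The KO 6 h difference was -0.82 ± 0.335 (adjusted p = 0.305). In WT at 24 h the difference was -0.99 ± 0.335 (adjusted p = 0.137). The WT 6 h call was lost without any of WT 6 h replicates 1 (-1.30), 2 (-1.36) and 5 (-1.42) or WT 0 h replicates 2 (-1.41), 3 (-1.35) and 4 (-1.46), with adjusted p up to 0.103 there and 0.00297 to 0.398 over all settings tried.

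Sfrp5, a secreted frizzled-related antagonist of Wnt, stood near the floor, and its changes were small in level. WT jejunum read 3.47, 3.45, 4.15, 3.54 and 3.09 at 0 h, 3.08, 2.58, 2.58, 2.58 and 2.68 at 6 h, and 2.58 in each of the 4 arrays at 24 h. KO jejunum read 2.58, 3.11, 2.58, 3.23 and 2.83 at 0 h, while at 6 and 24 h all KO arrays read 2.41 to 2.58. The value 2.58 recurs across arrays, so these falls end at the lowest level the probe set usually gives. Sfrp5 fell in WT by 0.84 ± 0.14 at 6 h (adjusted p = 0.00216) and by 0.96 ± 0.148 at 24 h (adjusted p = 0.000944), and in KO the differences of -0.33 ± 0.148 at 6 h (adjusted p = 0.362) and -0.33 ± 0.14 at 24 h (adjusted p = 0.307) were not called. With every signal under floor + 1 set to floor + 1, neither WT fall was called. The difference between the genotypes in these changes was +0.51 ± 0.204 at 6 h (adjusted p = 0.925) and +0.62 ± 0.204 at 24 h (adjusted p = 0.726) and was not called.

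Ascl2, the basic helix-loop-helix factor of stem cell identity, read 3.81 to 4.36, 3.00 to 3.91 and 3.88 to 4.86 in KO jejunum at 0, 6 and 24 h. In WT jejunum it read 3.86 to 4.41, 3.46 to 4.08 and 3.81 to 4.14. None of its differences from 0 h was called, and the KO 24 h against 6 h difference was +0.71 ± 0.198 (adjusted p = 0.188). A second Ascl2 probe set, near the floor with a jejunum mean of 3.09, differed by +0.87 ± 0.117 in that comparison and was called when every probe set was tested (adjusted p = 0.000983). That second probe set is the one that represents Ascl2 in colon. Lgr5, the R-spondin receptor that defines these stem cells, read 2.35 to 4.80 over all jejunum arrays and gave no call. The highest value, 4.80, was KO 0 h replicate 3, the array with distal markers at 10.35.

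Cdca7, a Myc-responsive chromatin protein of dividing cells (chromosome 2, 72476187 to 72486892), averaged 7.23 ± 0.311, 6.55 ± 0.414 and 6.96 ± 0.124 in KO jejunum at 0, 6 and 24 h. It averaged 7.16 ± 0.255, 6.37 ± 0.543 and 6.89 ± 0.233 in WT jejunum. The 6 h differences of -0.67 ± 0.223 in KO (adjusted p = 0.19) and -0.79 ± 0.21 in WT (adjusted p = 0.119) were not called, although KO 6 h lay wholly below KO 0 h. Without WT 6 h replicate 3, at 7.14 against 5.66 to 6.51 in the rest of its group, the WT difference was -0.99 and was called (adjusted p = 0.0103, within 0.0103 to 0.543 over the settings tried).

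Among the other Wnt-linked members in jejunum, Axin2, the feedback scaffold of the beta-catenin destruction complex, differed from 0 h by between -0.20 and +0.14 over both genotypes and times. Sox9, a transcription factor of crypt progenitors and Paneth cells, differed by between -0.01 and +0.14. Rgmb, a co-receptor for BMP ligands, differed by -0.65 ± 0.313 and -0.83 ± 0.295 in KO at 6 and 24 h (adjusted p = 0.403 and 0.217) and by -0.36 ± 0.295 and -0.21 ± 0.313 in WT (adjusted p = 0.742 and 0.792). None of these was called.

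In counts, 1 of 10 members was called in KO jejunum at 6 h and 2 at 24 h, all lower, where 0.66% and 0.689% of all genes tested were called in either direction (0.308% and 0.425% lower). In WT jejunum 3 members were called at 6 h and 2 at 24 h, all lower, where 0.432% and 1.4% of all genes were called (0.169% and 0.843% lower). The median difference of the members was -0.59 and -0.34 in KO at 6 and 24 h and -0.65 and -0.38 in WT, against -0.02 at 6 h and -0.01 at 24 h over all genes in either genotype. All 10 members were below 0 in WT at 6 h and 9 were in KO, whether called or not. Lgr5 and Sfrp5, near the floor, are in both counts, and Sox9 averaged 5.4 in WT at both 0 and 6 h. The share of all genes below 0 is not given, so these counts are a description only. Between 24 h and 6 h no member was called in KO or WT jejunum, where 0.117% and 0.755% of genes were called. For WT 6 h against 0 h, where same-numbered arrays deviated together, the fit of all groups with replicate number as a block also called Olfm4 (adjusted p = 0.0459) beside Smoc2, Aqp4 and Sfrp5. In a paired fit of those 2 groups alone no member was called (adjusted p = 0.27 for Smoc2, 0.238 for Aqp4 and 0.334 for Sfrp5), and 5 genes were called in all.

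**Figure D3:**
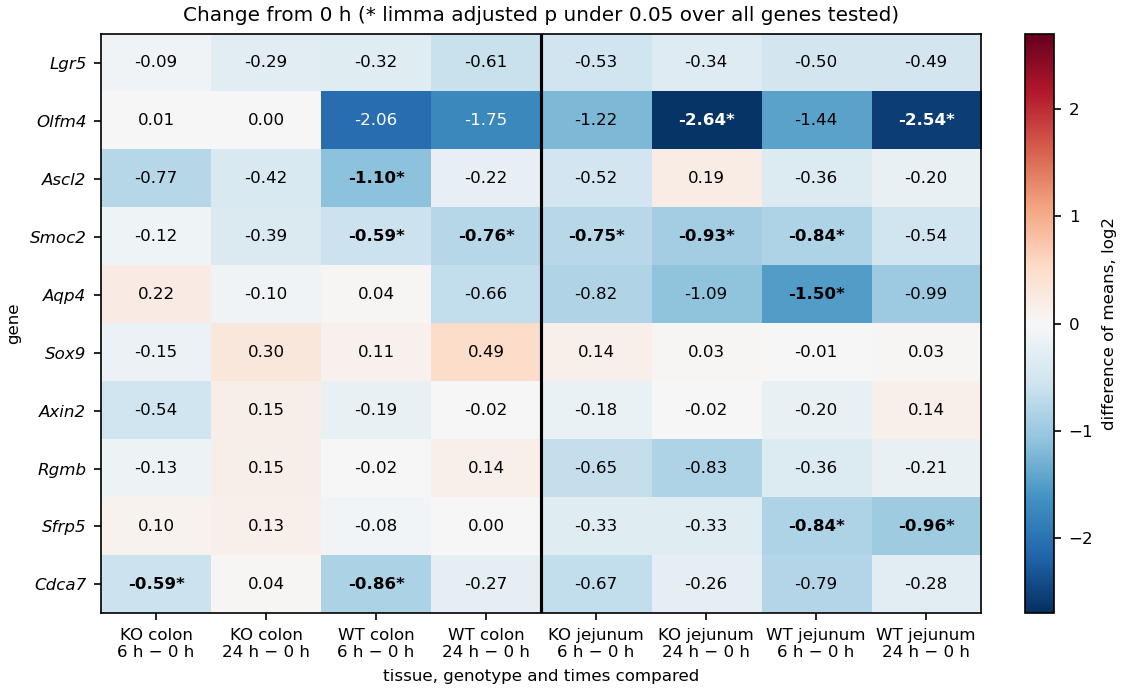
Difference of group means from 0 h (log2, colour and number) for the 10 members (rows) at 6 and 24 h in KO and WT colon (left of the line) and jejunum (right); stars mark limma adjusted p under 0.05 over all genes tested. Olfm4 in jejunum at 24 h holds the 2 largest falls, -2.64 in KO and -2.54 in WT, and no difference above 0 was called.

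In colon, where Olfm4 is not a stem cell marker in mice, it read 2.28 to 2.30 in all 15 KO arrays and 2.28 in 9 of 13 WT arrays. The other WT arrays were 0 h replicate 2 (9.96), 0 h replicate 3 (5.10), 24 h replicate 5 (3.67) and 6 h replicate 1 (2.42). WT 0 h replicates 2 and 3 were the arrays with the highest markers of small intestinal enterocytes, and Lct, the small intestinal lactase, read 9.49 and 6.33 in them against 2.60 to 3.46 in the other colon arrays. WT differences from 0 h were -2.06 ± 0.915 at 6 h (adjusted p = 0.29) and -1.75 ± 0.915 at 24 h (adjusted p = 0.291), and they became +0.04 and +0.35 without these 2 arrays.

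**Figure D4:**
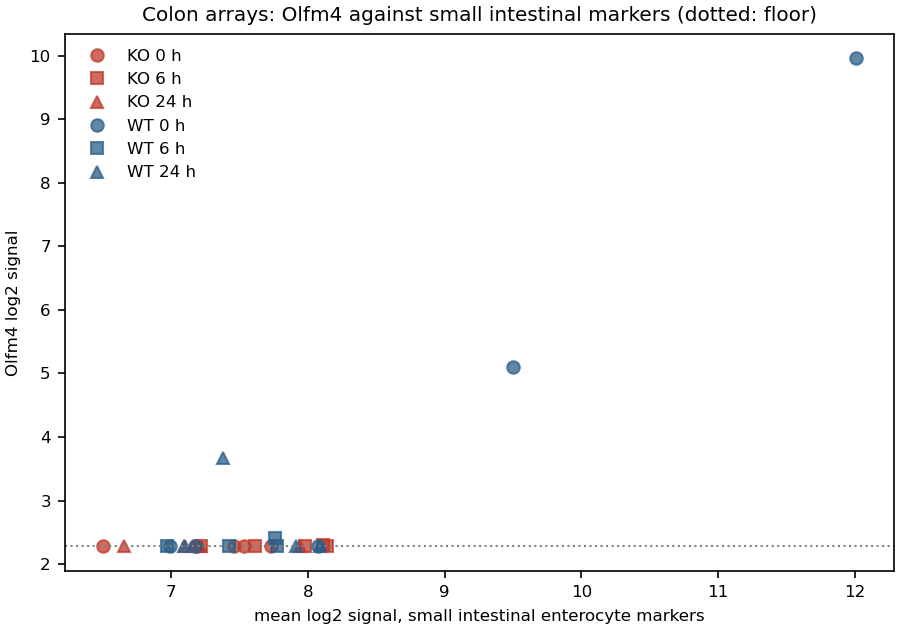
Log2 Olfm4 signal of each colon array against the mean log2 signal of markers of small intestinal enterocytes, for KO (red) and WT (blue) at 0, 6 and 24 h; the dotted line is the array floor. WT 0 h replicates 2 and 3 stand apart at 12.01 and 9.50 on the marker axis with Olfm4 at 9.96 and 5.10.

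Cdca7 was lower at 6 h in colon of both genotypes. KO colon read 7.01, 6.68, 7.34, 7.05 and 7.02 at 0 h, 6.42, 6.4, 6.51, 6.05 and 6.74 at 6 h, and 7.46, 6.91, 7.08, 6.98 and 6.86 at 24 h. WT colon read 7.46, 7.23, 7.42, 6.96 and 6.85 at 0 h, 6.25, 6.10, 6.62 and 6.33 at 6 h, and 7.13, 7.07, 6.58 and 6.89 at 24 h. In WT the 6 h arrays lay wholly below 0 h, and in KO the highest 6 h array passed the lowest 0 h array. Cdca7 fell by 0.59 ± 0.151 in KO at 6 h (adjusted p = 0.0432) and by 0.86 ± 0.16 in WT (adjusted p = 0.00268). In KO it then rose by 0.63 ± 0.151 between 6 and 24 h (adjusted p = 0.0367), and the WT difference of +0.59 ± 0.169 was not called (adjusted p = 0.164). Neither 24 h group differed from 0 h (KO +0.04 ± 0.151, adjusted p = 1; WT -0.27 ± 0.16, adjusted p = 0.369) beyond the threshold. The KO 6 h call was lost in 16 of 23 other settings, among them leaving out KO 0 h replicates 1 (-0.60), 3 (-0.51), 4 (-0.59) or 5 (-0.60) or KO 6 h replicates 1 (-0.59), 2 (-0.59), 3 (-0.62) or 4 (-0.50), with adjusted p from 0.0168 to 0.145. The KO rise between 6 and 24 h lost its call in 9 of 10 fits that left out 1 array, all but that without KO 6 h replicate 5, with differences of +0.53 to +0.68 and adjusted p of 0.0512 to 0.0972.

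Ascl2 (chromosome 7, 142966822 to 142969264) had the largest called fall of a member in colon. WT colon read 5.3, 4.6, 4.02, 4.33 and 4.0 at 0 h, 3.11, 3.47, 3.76 and 3.05 at 6 h, and 4.68, 3.91, 4.10 and 4.24 at 24 h. The WT 6 h arrays lay below all WT arrays of the other times. Ascl2 fell by 1.10 ± 0.233 in WT at 6 h (2.15-fold, adjusted p = 0.00861), and at 24 h its difference from 0 h was -0.22 ± 0.233 (adjusted p = 0.672). Of the 4 WT 6 h arrays, 2 lay within 1 of the floor, which limits the size of the fold. The WT 6 h call was lost in a limma fit of only the groups compared. Over the settings tried this difference was -1.24 to -0.73, with adjusted p of 0.00151 to 0.167. KO colon read 4.44, 4.80, 4.13, 4.63 and 4.14 at 0 h, 3.91, 3.78, 3.5, 3.09 and 4.02 at 6 h, and 3.91, 4.02, 4.36, 3.83 and 3.92 at 24 h. KO 6 h also lay wholly below KO 0 h, but the difference of -0.77 ± 0.219 was not called (adjusted p = 0.0844). It was called with the mean of the gene's probe sets (-0.55, adjusted p = 0.0327), with array weights (-0.62, adjusted p = 0.0425) and after quantile normalization (-0.83, adjusted p = 0.0472), within 0.0327 to 0.23 over the settings tried.

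Smoc2 in WT colon read 6.89, 6.39, 6.27, 6.29 and 6.52 at 0 h, 5.72, 5.84, 5.93 and 6.03 at 6 h, and 5.72, 5.57, 5.66 and 5.89 at 24 h. Both later WT groups lay wholly below 0 h. It fell by 0.59 ± 0.149 at 6 h (adjusted p = 0.0322) and by 0.76 ± 0.149 at 24 h (adjusted p = 0.00364). KO colon read 6.44, 6.08, 5.57, 6.36 and 6.36 at 0 h, 6.17, 6.20, 6.01, 5.85 and 5.98 at 6 h, and 5.82, 5.57, 5.89, 5.59 and 5.98 at 24 h. KO differences were -0.12 ± 0.14 at 6 h (adjusted p = 0.797) and -0.39 ± 0.14 at 24 h (adjusted p = 0.394). Without KO 0 h replicate 3, the lowest of its group, the KO 24 h difference was -0.54 and was called (adjusted p = 0.0262, within 0.0262 to 0.752 over the settings tried). The WT 6 h call was lost without WT 0 h replicate 1 (-0.49) or WT 6 h replicates 1 (-0.54), 2 (-0.58) or 4 (-0.61), with adjusted p up to 0.122 there and 0.0101 to 0.134 over all settings.

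**Figure D5:**
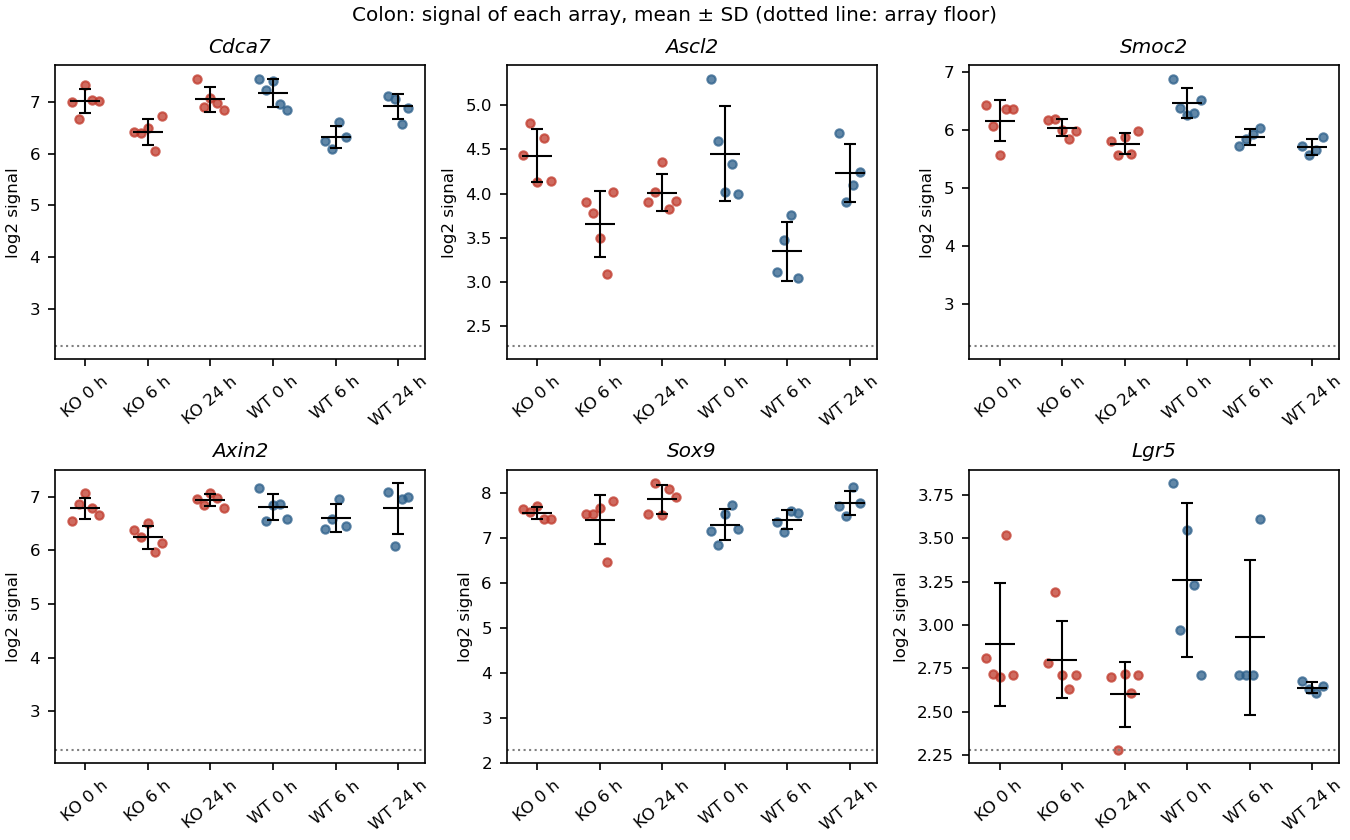
Log2 signal of 6 members in each colon array (points), with group mean and SD (bars), for KO and then WT at 0, 6 and 24 h; the dotted line is the array floor. Cdca7 averages 6.42 in KO and 6.33 in WT at 6 h, against 7.02 in KO and 7.18 in WT at 0 h, and Lgr5 stays within 2.28 to 3.82.

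Axin2 in KO colon read 6.54, 6.86, 7.06, 6.79 and 6.65 at 0 h, 6.38, 6.25, 6.50, 5.96 and 6.13 at 6 h, and 6.96, 6.85, 7.07, 6.98 and 6.78 at 24 h. The KO 6 h arrays lay below all others. Axin2 rose by 0.68 ± 0.16 between 6 and 24 h in KO (adjusted p = 0.0348), while its 6 h difference from 0 h of -0.54 ± 0.16 was not called (adjusted p = 0.101). In WT colon it averaged 6.80 ± 0.245, 6.60 ± 0.252 and 6.78 ± 0.475 at 0, 6 and 24 h, and no difference was called. The KO rise lost its call in 8 of 10 fits that left out 1 array, KO 6 h replicates 2 (+0.68), 4 (+0.61) and 5 (+0.65) or any KO 24 h replicate (+0.65 to +0.72), with adjusted p up to 0.0877.

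Aqp4 in colon averaged 10.70 ± 0.377, 10.92 ± 0.453 and 10.60 ± 0.308 in KO and 10.74 ± 0.602, 10.78 ± 0.319 and 10.07 ± 0.203 in WT at 0, 6 and 24 h. Its WT 24 h difference from 0 h, -0.66 ± 0.258 (adjusted p = 0.136), was called without WT 0 h replicate 2 (-0.87, adjusted p = 0.0337, within 0.0337 to 0.358 over the settings tried), the array with the highest small intestinal markers. Sox9 averaged 7.55 ± 0.13, 7.40 ± 0.542 and 7.85 ± 0.323 in KO and 7.29 ± 0.347, 7.40 ± 0.213 and 7.78 ± 0.265 in WT, and Rgmb stayed between 7.28 and 8.06 in all colon arrays. Lgr5 averaged 2.89 ± 0.355, 2.80 ± 0.221 and 2.60 ± 0.188 in KO and 3.26 ± 0.444, 2.93 ± 0.448 and 2.64 ± 0.0304 in WT. Its WT 24 h difference of -0.61 ± 0.203 was not called (adjusted p = 0.0745) but was without WT 0 h replicate 5 (-0.75, adjusted p = 0.0183, within 0.0183 to 0.309). Sfrp5 read 2.58 to 3.53 over all colon arrays with no call.

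In colon 1 member was called in KO at 6 h and none at 24 h against 0 h, where 1.48% (0.22% lower) and 0.183% of genes were called, and 2 were called higher at 24 h against 6 h, where 1.29% were called (0.498% higher). In WT colon 3 members were called at 6 h, 1 at 24 h and none at 24 h against 6 h, where 2.18%, 5.29% and 0.242% of genes were called (0.74% and 2.51% lower for the comparisons with 0 h). The medians of the members at 6 h were -0.12 in KO and -0.26 in WT, against -0.01 and 0 over all genes. At 24 h they were +0.02 in KO and -0.24 in WT, against 0 and +0.01. Markers of other cells moved in the same arrays: skeletal muscle markers rose for 5 of 6 genes in KO colon at 6 h, where their mean was 5.04 to 7.0 against 2.99 to 3.59 at 0 h, with 5 of 6 near the floor at 0 h. B cell markers fell for 3 of 3 genes in WT colon at 24 h, with a mean of 3.59 to 4.28 against 4.48 to 6.56 at 0 h. Their part in the members' values was not tested.

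Between genotypes, only Sfrp5 in jejunum at 0 h was called, at 2.87 ± 0.297 in KO and 3.54 ± 0.384 in WT (difference -0.67 ± 0.14, adjusted p = 0.0322), where 0.183% of genes were called (0.125% lower). The groups overlapped, and the call was lost in 13 of 23 other settings (adjusted p from 0.00504 to 0.49), among them leaving out WT 0 h replicates 1 (-0.69), 3 (-0.52) or 4 (-0.67) or KO 0 h replicates 1 (-0.60), 3 (-0.60) or 5 (-0.66). With batch as a term, which rests on 1 KO array, the difference was -0.96 (adjusted p = 0.0244). That array, KO jejunum 0 h replicate 1, was low in proximal markers. No member was called between genotypes in jejunum at 6 or 24 h, where 2.14% and 0.704% of genes were called, or in colon at 0, 6 or 24 h, where 2.07%, 0.879% and 0.469% were called. In the fit that included batch, the number of genes called between KO and WT in colon was 14, 17 and 9 at 0, 6 and 24 h, instead of 283, 120 and 64, and in jejunum it was 390, 744 and 194, instead of 25, 292 and 96. Because the jejunum term rests on KO 0 h replicate 1, batch and gut position cannot be told apart in it. Olfm4 in jejunum differed between KO and WT by +0.60 ± 0.37 at 0 h, +0.82 ± 0.392 at 6 h and +0.50 ± 0.392 at 24 h (adjusted p = 0.678, 0.283 and 0.699). The change from 0 h differed between KO and WT for no member by limma, where 0.022% and 0.0293% of genes were called in colon at 6 and 24 h and 0% in jejunum at either time. For Olfm4 in jejunum at 24 h this difference was -0.10 ± 0.539, with a 95% interval of -1.21 to 1.01, and differences anywhere in that interval are compatible with these arrays. For Ascl2 in colon at 6 h it was +0.33 ± 0.32 (interval -0.32 to 0.99) and for Smoc2 it was +0.47 ± 0.204 (interval 0.05 to 0.89, adjusted p = 0.404).

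The rest of the Wnt pathway was read from lists of its ligands, R-spondins with their receptors, receptors, inhibitors, destruction complex, TCF factors and targets. None of 5 measured Wnt ligands, 3 (colon) or 5 (jejunum) genes of R-spondins and their receptors, 8 or 9 destruction complex genes, 5 TCF genes and 12 Wnt receptors was called in any comparison with 0 h. Between KO and WT, the receptors Fzd1 in colon at 0 h (+0.75 ± 0.147, adjusted p = 0.0078) and Fzd5 in jejunum at 6 h (+0.6 ± 0.14, adjusted p = 0.0225) were called higher in KO. In jejunum at 6 h all 4 KO arrays and 1 WT array were low in proximal markers. Also between KO and WT in colon, the inhibitor Dkk2 differed by -0.3 ± 0.0709 at 6 h (adjusted p = 0.0399) and the stem cell marker Igfbp4 by +0.56 ± 0.142 at 0 h (adjusted p = 0.0358). These KO against WT differences lie almost wholly between batches, and values with batch as a term are not given for them. In colon at 0 h, markers of fibroblasts averaged 10.34 to 11.11 in KO and 9.84 to 10.22 in WT arrays. Their part in the Fzd1 and Igfbp4 differences was not tested. Of 11 inhibitors measured in colon, Dkk2 rose by 0.30 ± 0.0709 in WT colon at 6 h (adjusted p = 0.0204), and Nkd1, a Wnt feedback inhibitor, rose by 0.62 ± 0.154 in KO colon between 6 and 24 h (adjusted p = 0.0447). Of 6 other crypt Wnt targets measured in colon, 3 rose in WT colon at 24 h, namely Myc by 0.68 ± 0.177, Ccnd1 by 0.55 ± 0.155 and Ets2 by 0.39 ± 0.0941 (adjusted p = 0.024, 0.0385 and 0.0171). Of all genes tested, 5.29% were called there in either direction, and values under other settings are not given for these 3 genes. Ephb3, a receptor that positions crypt cells, rose by 0.74 ± 0.172 in KO colon between 6 and 24 h (adjusted p = 0.033). In the same WT colon comparison at 24 h, Prom1 alone rose among 8 other stem cell markers, by 0.58 ± 0.155 (adjusted p = 0.0303). The list median of the Wnt targets there was +0.35, against +0.01 over all genes.

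Among 6 reserve and regenerative stem cell markers, Tert, the telomerase catalytic subunit, rose at 6 h in each tissue and genotype. It rose by 0.77 ± 0.141 in KO colon (adjusted p = 0.00366), 1.62 ± 0.149 in WT colon (adjusted p = 4.91e-07), 1.99 ± 0.303 in KO jejunum (adjusted p = 0.000951) and 2.09 ± 0.285 in WT jejunum (adjusted p = 0.000131). Tert in colon at 6 h was lower in KO than in WT by 0.87 ± 0.149 on the log2 scale (difference -0.87, adjusted p = 0.0033), and Hopx, another reserve cell marker, was higher in KO by 0.65 ± 0.112 (adjusted p = 0.00299). Anxa1, a marker of regenerating epithelium, rose by 0.57 ± 0.134 in KO colon at 6 h (adjusted p = 0.0274) and differed by -0.56 ± 0.134 between 24 and 6 h (adjusted p = 0.0377). Markers of squamous epithelium averaged 3.18 to 4.08, 4.16 to 6.53 and 3.66 to 4.03 in KO colon at 0, 6 and 24 h. None of these 4 genes was called at 6 h against 0 h (median difference +1.78), and their part in the Anxa1 values was not tested. Tert in WT colon differed by -1.16 ± 0.157 between 24 and 6 h (adjusted p = 0.000688). Clu, a marker of regenerating epithelium, was lower in KO than in WT jejunum at 0, 6 and 24 h (-2.0 ± 0.289, -1.54 ± 0.307 and -1.97 ± 0.307, adjusted p = 0.000689, 0.00813 and 0.0011). Gkn3, a stem cell marker of the small intestine, differed by -7.93 ± 2.13 between KO and WT jejunum at 6 h (adjusted p = 0.0484), where all 4 KO arrays were low in proximal markers. The Clu difference at 6 h comes from the same arrays. KO jejunum arrays low in proximal markers numbered 2 at 0 h and 3 at 24 h, against 0 and 1 in WT. In the Notch list, Hes1, a Notch target, fell by 0.64 ± 0.162 in WT colon at 24 h (adjusted p = 0.0213) and Jag1, a Notch ligand, rose by 0.48 ± 0.0885 (adjusted p = 0.00206), as it did by 0.4 ± 0.0885 at 6 h (adjusted p = 0.0138). In the BMP list Id3 fell by 0.67 ± 0.134 in KO colon at 6 h (adjusted p = 0.00829) and by 0.53 ± 0.142 in WT colon at 24 h (adjusted p = 0.031), where Bmpr2, a BMP receptor, rose by 0.24 ± 0.0663 (adjusted p = 0.0357). Bmp4 and Smad7 were higher in KO than in WT colon at 0 h by 0.59 ± 0.153 and 0.32 ± 0.0695 (adjusted p = 0.0417 and 0.0164). Fibroblast markers were also higher in these KO arrays, and their part in both values was not tested. All differences between KO and WT given for these lists lie almost wholly between batches, and values with batch as a term are not given for them.

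Genes of the cell cycle moved beside the members. In WT colon at 6 h, when Cdca7 and Ascl2 fell, 10 of 10 S phase genes fell with a median of -1.39, and none of 10 was called in KO colon (median -0.19). Of all genes tested, 0.74% in WT and 0.22% in KO were called lower there. No S phase gene was called in jejunum. Mitosis genes fell for 7 of 7 in WT colon at 24 h (median -1.99), 1 of 7 in KO colon (median -0.82), 2 of 7 in KO jejunum (median -0.75) and 5 of 7 in WT jejunum (median -1.35). Of all genes, 2.51% in WT colon, 0.425% in KO jejunum and 0.843% in WT jejunum were called lower, and 0.183% in KO colon in either direction. The change from 0 h differed between KO and WT for no S phase or mitosis gene by limma, and genotypes lie almost wholly between batches. Of 7 p53 target genes, all 7 rose at 6 h in KO and WT colon, and 3 and 4 rose in KO and WT jejunum. Of all genes, 1.48% and 2.18% were called in either direction at 6 h in KO and WT colon, and 0.66% and 0.432% in KO and WT jejunum. Phlda3, a p53 target, rose by 2.9 ± 0.193 in KO jejunum (adjusted p = 6.7e-10) and by 3.17 ± 0.182 in WT jejunum (adjusted p = 2.42e-11) at 6 h. None of the 18 marker lists of cell types and gut positions had a called gene in jejunum, although some varied widely between arrays. Markers of exocrine pancreas averaged 2.85 to 6.47, 2.88 to 3.23 and 2.95 to 9.08 in KO jejunum at 0, 6 and 24 h, and 3.28 to 12.49, 3.16 to 10.72 and 2.8 to 13.08 in WT jejunum. The median difference of the 4 measured pancreas genes from 0 h was -1.76 and -0.37 in KO and -1.95 and +1.29 in WT, and KO against WT it was -3.14, -2.78 and -4.71 at 0, 6 and 24 h. Their part in the members' values was not tested.

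Over the 28 arrays of each tissue, which share their groups and normalization, the genes most like the members were found by Pearson correlation as a description. In jejunum Olfm4 was most like Clic6 (r = 0.915), Hmgn5 (0.897) and Bbip1 (0.892), and Aqp4 was most like Tfam (0.86), Tmpo (0.857) and Paics (0.853). Smoc2 was most like Tmem107 (0.87), Cacybp (0.825) and Snrpf (0.812), and Cdca7 was most like Mcm2, a replication helicase subunit (0.807), Slfn9 (0.791) and Zfp638 (0.786). Ascl2 was most like Kctd21, Mab21l2 and Ski (0.689 to 0.732), Axin2 most like Sval1, Mboat1 and Slc25a35 (0.818 to 0.828), Rgmb most like Gt(ROSA)26Sor, Capn7 and Atrx (0.803 to 0.827), and Sox9 had the lowest values, with Mecom, Top3a and Map3k10 (0.581 to 0.627). In colon Cdca7 and Ascl2 shared Slbp, the histone mRNA binding protein, at r = 0.812 and 0.782. Beside it stood Mogs (0.809) and Slc39a10 (0.808) for Cdca7 and Lmnb2 (0.816) and Fkbp4 (0.769) for Ascl2. Smoc2 was most like H2az2 and Tfrc (0.857 each) and Mecr (0.822). Rgmb in colon was most like the Wnt ligand Wnt5a (0.795), the BMP pseudoreceptor Bambi (0.781) and Serpinb6b (0.762). Aqp4 was most like Acsm3, Tube1 and Cdc25b (0.729 to 0.784), Sox9 most like Pmepa1, Dusp6 and Filip1l (0.761 to 0.784), and Axin2 most like Oit1, Sike1 and Nrp2 (0.711 to 0.765). Among the members in jejunum, Olfm4 correlated with Aqp4 at 0.782 over all arrays and at 0.728 after group means were removed, whereas with Smoc2 it correlated at 0.682 over all arrays and at 0.127 after they were removed. Ranked by group mean, every neighbouring pair of groups overlapped in its array values for every member in both tissues.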

How the data were processed

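RNA of whole colon and jejunum was hybridised to Affymetrix arrays. The deposited values are log2 signals, 1 table per tissue, and GCRMA and RMA appear in the submitters' processing notes, with no version and no role given. Values came from the series' value table. It held the same values as 55 array columns of the deposited tissue files. The values of 1 colon column whose name fits no sample's labels were not used, so those of KO colon 24 h replicate 3 came from the value table alone. The batch of that replicate was read from the name of the unused column, a match that was assumed. The array holds 45101 probe sets, of which 34958 name a single gene (1 symbol), 932 several and 9211 none. Per gene the brightest single-gene probe set on average was kept. The dimmest 25% of genes were dropped, leaving 13645 per tissue.

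Group means were fitted per tissue over 28 arrays and 6 groups with limma 3.58.1 (eBayes with a mean-variance trend, R 4.3.3), with two-sided p-values and Benjamini-Hochberg adjustment per comparison (threshold 0.05). A difference between genotypes in a change is the KO change minus the WT change. The fit was tested on simulated data. The number of arrays limits the precision. The members, gene lists and alternatives were chosen with earlier results of these data known. Named were all members, up to 4 called genes per list and comparison by size of change, and the 3 genes most like each member above the floor.

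The design text gives each array as a separate mouse. Arrays of equal number deviated together, with every correlation of deviations from group means over 0.1, in 0 of 15 pairs of groups in colon (-0.257 to 0.322) and 1 of 15 in jejunum (-0.597 to 0.475), namely WT 0 h with WT 6 h (5 pairs, 0.151 to 0.471). A replicate block is therefore given in the report for that comparison. Alternatives covered the filter, probe set choice, array weights, quantile normalization, the samples fitted, the floor, batch, the replicate block and arrays left out. Promoters came from RefSeq (GRCm38.p6) by symbol, for 6 of 10 members.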

Additional observations from a re-analysis of the deposited data

Results flagged for a closer look

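Single arrays stood apart from their group in 10 of 102 groups of 4 or 5 arrays examined for the members. A group was examined only where its highest array stood at floor + 1 or above. Groups near the floor therefore entered through a high array, so this count cannot be set against a chance rate. A group is listed where the gap of its highest or lowest array to the next was large for the whole range of the group, by Dixon's test at the 95% level.

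In colon, Lgr5 read 3.52 in KO 0 h replicate 4 against 2.7 to 2.81 in the rest of its group, and 3.61 in WT 6 h replicate 5 against 2.71. Olfm4 read 3.67 in WT 24 h replicate 5 against 2.28, and Sfrp5 read 3.33 in KO 24 h replicate 5 against 3.13 to 3.16. Sox9 read 6.45 in KO 6 h replicate 4 against 7.52 to 7.82, and Axin2 read 6.07 in WT 24 h replicate 2 against 6.95 to 7.09.

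In jejunum, KO 0 h replicate 3 stood apart for 3 members. Lgr5 read 4.80 in it against 2.89 to 3.29, Axin2 read 7.41 against 6.19 to 6.50, and Smoc2 read 7.13 against 7.34 to 7.41. Distal small intestine markers averaged 10.35 in this array, and their part in these values was not tested. Sox9 read 5.72 in KO 6 h replicate 1 against 5.36 to 5.38.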

How the results depend on the processing

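Of the differences of single members under other settings, 5190 kept direction and side of the threshold, 93 lost a call, 30 gained one and 0 reversed. The number of members called in KO colon at 6 h against 0 h, 1, became 0 without the filter, with every probe set tested, in a fit of only the groups compared, with floor + 1 as lowest signal, with batch as a term, with a replicate block and without 2 doubted arrays (replicate 2 of WT and replicate 3 of KO colon at 0 h), and 2 with array weights or quantile normalization. For KO colon at 24 h against 6 h, 2 became 0 without the filter and 1 with the mean of probe sets, every probe set tested, only the groups compared or floor + 1. WT colon at 6 h and at 24 h against 0 h had 0 in fits of only the groups compared, instead of 3 and 1, and WT colon at 24 h against 6 h had 2 with array weights, instead of 0. Without the doubted arrays KO and WT colon at 24 h against 0 h had 1 and 2.

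In KO jejunum at 6 h against 0 h, 1 became 0 with the mean of probe sets or a replicate block and 5 with array weights. At 24 h against 0 h, 2 became 4 with array weights and 0 without arrays low in proximal markers. At 24 h against 6 h, 0 became 1 with the mean of probe sets or only the groups compared and 2 with array weights. In WT jejunum at 6 h, 3 became 5 with array weights, 1 with floor + 1, and 0 with only the groups compared, without arrays low in proximal markers or with a replicate block in those 2 groups alone. At 24 h, 2 became 1 without the lowest 50% of genes or with floor + 1, and 0 with only the groups compared. For KO against WT jejunum at 0 h, 1 became 0 without the filter, without the lowest 50%, with the mean of probe sets, only the groups compared, floor + 1, a replicate block, the position covariate or without arrays low in proximal markers.

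With 1 array left out at a time, members called ranged over 0 to 1 in KO colon at 6 h, 0 to 1 at 24 h and 0 to 1 at 24 h against 6 h, 1 to 2 in WT colon at 24 h, 0 to 1 in KO jejunum at 6 h, 2 to 5 in WT jejunum at 6 h and 0 to 1 for KO against WT jejunum at 0 h. The cause of these shifts was not tested. The replicate block changed no other call than those given here and in the report. Leaving out low arrays removes all KO 6 h jejunum arrays, so that comparison had no value there. That setting, the position covariate, colon without WT 0 h replicates 2 and 3 and the block in 2 groups alone were chosen after seeing the data. Over all genes tested, array weights called 3615 in KO jejunum at 6 h and 2598 at 24 h against 0 h, instead of 90 and 94, and 119 and 1101 in WT jejunum, instead of 59 and 191. In colon they called 503 and 102 in KO, instead of 202 and 25, and 640 in WT at 6 h, instead of 297. Fits of only the groups compared called 41 and 0 in KO colon, 93 and 65 in WT colon (722 at 24 h with all groups), 22 in KO jejunum at 6 h, and 18 and 47 in WT jejunum. A batch term gave 12 in KO colon at 24 h, and 235 and 162 in KO jejunum at 6 and 24 h. In jejunum that term rests on KO 0 h replicate 1, an array low in proximal markers, so it cannot be told apart from gut position.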
